A study of Mus musculus with 4 samples.

Results

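The comparison set colon mucosa of Apc mutant mice with Vhl deleted in the intestine (VhlΔIE/Apcmin/+) against that of Apc mutant mice whose Vhl was floxed and intact (VhlF/F/Apcmin/+). It rested on 2 of the 4 arrays of the series, 1 for each genotype. The other 2 arrays carried the same Vhl genotypes on wild-type Apc (VhlΔIE and VhlF/F) and are used only to show where the Apc mutant background differed. All mice were of the 129S6/SvEv strain and 5 weeks old, and RNA came from scrapings of the colon mucosa. The series design lists 3 VhlF/F/Apcmin/+ mice and 5 VhlΔIE/Apcmin/+ mice, and does not say whether their RNA was pooled on the array. The labels describe the Apc mutants as an intestinal tumor model, and do not name the Cre driver or say whether a scraping held tumor tissue. Of 45101 probe sets on the Affymetrix array, 34958 had exactly 1 gene symbol, which gave 18194 genes. Each gene was read from its probe set with the highest mean, and 11871 genes reached a log2 value of 6, the floor used here, in at least 1 of the 4 arrays. Values below are RMA log2 values, the VhlF/F/Apcmin/+ array is called the floxed array and the VhlΔIE/Apcmin/+ array the deleted array, and a difference is deleted minus floxed. With 1 array for each genotype there was no replicate, so no difference has an error or a test, and "higher" or "lower" describes these arrays only.

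The Vhl protein is the substrate receptor of a ubiquitin ligase that binds hydroxylated alpha subunits of the hypoxia-inducible factors (HIF) and sends them to the proteasome. Without it the alpha subunits persist in normal oxygen, pair with Arnt and bind DNA at hypoxia response elements near genes of glycolysis, angiogenesis and iron uptake. Apc holds together the machinery that destroys beta-catenin, and the Min allele cuts the protein short, which leads to intestinal adenomas. HIF signalling in the gut epithelium is known for its control of iron absorption and barrier function.

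The labels were first set against the array. Vhl read 8.17 in the floxed and 6.56 in the deleted array, a difference of -1.61. The control probe sets for Cre recombinase, 4 in number, read between 2.97 and 4.45 in the floxed arrays of the series and between 7.41 and 9.95 in the deleted arrays, while 27 bacterial control probe sets lay between 2.82 and 5.10. Whether the Vhl probe set lies in the deleted exon was not tested. Apc itself read 10.33 and 9.94, which does not check the labels because both genotypes carry the Min allele. Epithelial genes were high in the floxed and the deleted array alike, with Epcam at 13.91 and 13.87, Cdh1 at 12.31 and 12.25, Krt8 at 13.97 and 14.07 and the goblet cell mucin Muc2 at 13.90 and 14.16. The sex makeup of the arrays differed: Xist, the RNA of the inactive X chromosome, fell from 11.83 to 6.25, and the deleted array had all 3 Y-linked genes above the floor higher by 2-fold or more, with Eif2s3y at 7.27 and 8.80. Sex and Vhl status cannot be told apart here. On wild-type Apc Xist fell too, from 11.37 in VhlF/F to 5.58 in VhlΔIE, while Eif2s3y read 8.58 and 8.78. The 336 X-linked genes above the floor had a median difference of 0.01, with 7 past 2-fold upward and 5 downward. Actin gave a 3′ minus 5′ log2 value of 0.33 in the floxed and 0.34 in the deleted array.

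Loss of Vhl on the Apc mutant background went with more genes higher than lower at the 2-fold threshold. The deleted array exceeded the floxed array by 2-fold or more for 335 (2.82%) of 11871 genes and fell short of it by as much for 181 (1.52%), together 516 (4.35%). With no threshold the balance was the other way, with 5515 genes above 0 and 6348 below. Counts within gene groups are read against these shares, and a count of 0 in a short list lies near them. At higher thresholds 80 genes exceeded by 4-fold, 29 by 8-fold and 14 by 16-fold. The lower genes reached 4-fold in 24 cases and 8-fold in 3. The median of all genes was -0.02 and the middle of the distribution was narrow, from -0.20 at the 25th to 0.17 at the 75th percentile. The gene just inside the higher threshold differed by 1.0007 and the gene just outside by 0.9997. Of the higher genes, 86 lay under 6 in the floxed array, where background compresses the fold. Where a gene had more than 1 probe set above the floor, all probe sets pointed in the same direction for 117 of 119 higher genes (98.3%), for 61 of 63 lower genes (96.8%) and for 3632 of all 5258 genes (69.1%). The higher and lower genes were chosen by 1 of these probe sets, which favours agreement, so their shares cannot be set against that of all genes. All probe sets passed 2-fold for 69 of the 119 higher and 31 of the 63 lower genes.

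**Figure D1:**
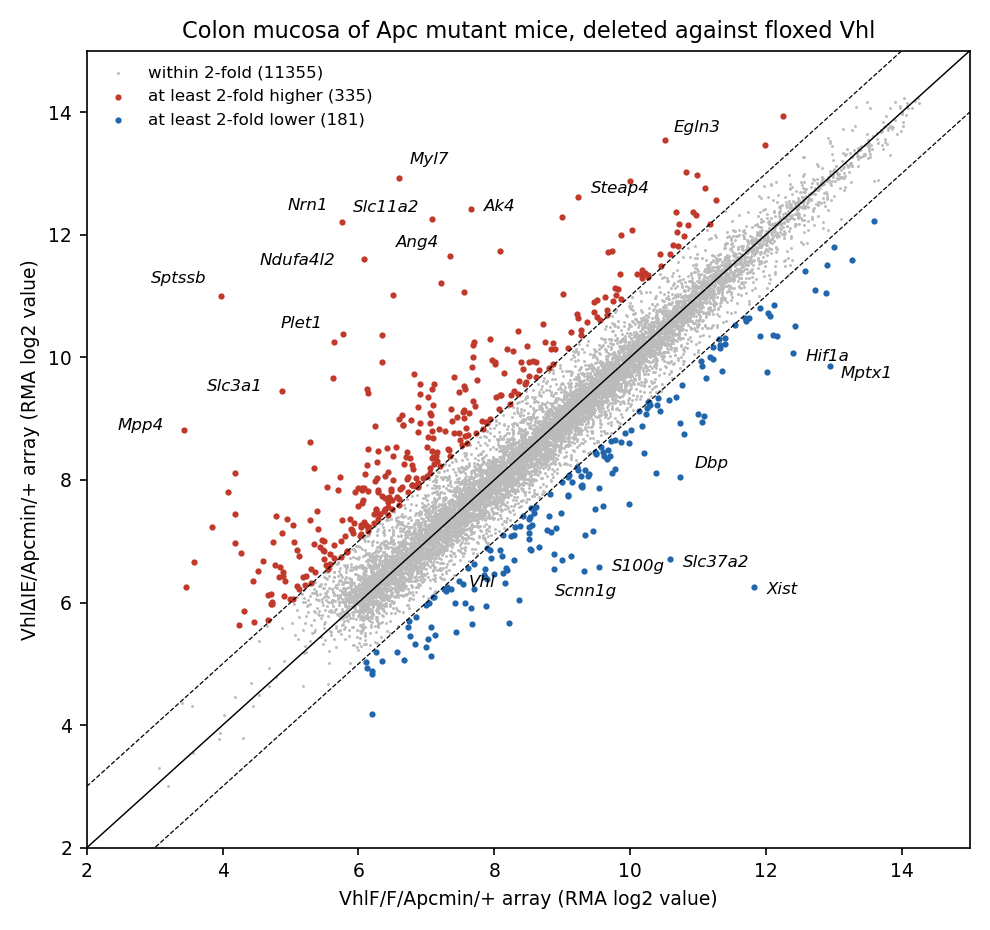
Each point is 1 of the 11871 genes, with its RMA log2 value in the VhlF/F/Apcmin/+ array on the x axis and in the VhlΔIE/Apcmin/+ array on the y axis; the solid line marks equal values and the dashed lines 2-fold differences. The 335 red genes lie above the upper dashed line, with Sptssb, Nrn1 and Myl7 farthest from it, and Xist is farthest below among the 181 blue genes.

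The 15 named genes with the greatest increase, clone and predicted-gene symbols passed over, covered several unrelated functions. Sptssb, a small subunit of serine palmitoyltransferase, read 3.98 in the floxed array and was higher by 7.02 in the deleted array. Nrn1, a membrane-anchored protein known from neurite growth, read 5.76 and 12.20, and Myl7, the myosin light chain of heart atria, 6.59 and 12.92. Genes whose usual tissue is not colon thus stood among the strongest signals of the deleted array. Mpp4, a photoreceptor scaffold, read 3.43 and 8.82. Dnase1l2, a DNase of the skin, read 5.65 and 10.26. Tmem237, a protein of the ciliary base, read 6.51 and 11.02, and Hrob, a homologous recombination factor, 5.63 and 9.66. Clca4b, a calcium-activated chloride channel regulator, read 7.22 and 11.20. The other 7 of these 15 genes, Ndufa4l2, Slc11a2, Ak4, Plet1, Slc3a1, Ang4 and Retnlb, are described with their groups.

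The 15 named genes with the greatest decrease, chosen by the same rule, held transporters, a clock output gene and a HIF subunit beside Xist. Slc37a2, a sugar phosphate exchanger, read 10.59 and 6.72, a difference of -3.87. Mptx1, a pentraxin secreted by the gut mucosa, read 12.95 and 9.86. Wnt8b, a Wnt ligand, read 8.22 and 5.66, and the P450 enzyme Cyp2f2 9.99 and 7.61. Klb, a co-receptor of endocrine fibroblast growth factors, differed by -2.33, Cttnbp2 by -2.29, Casp14, a caspase of cornified epidermis, by -2.27, and Nxpe2 by -2.27. S100g, Scnn1g, Dbp, Hoxd10, Hif1a and Slc5a8 complete the 15 and are described below.

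Among the 13 HIF pathway components above the floor, 2 passed 2-fold upward and 2 downward, with a median of -0.07. The transcript of Hif1a, an oxygen-labile alpha subunit, read 12.40 in the floxed and 10.07 in the deleted array, a difference of -2.33, and its 3 probe sets above the floor all went down. Epas1, the alpha subunit also called HIF-2alpha, stayed near its level at 12.35 and 12.11. Hif3a, the alpha subunit whose short forms oppose the others, read 8.49 and 10.19. Egln3, a prolyl hydroxylase that is itself a HIF target, read 10.51 and 13.55, and Egln1, the main oxygen sensor of the family, 10.03 and 10.84. The subunits that work with Vhl in the ligase differed little. Eloc differed by 0.05, Elob by -0.07, Cul2 by 0.05 (-0.31 without probe sets named _x_at, _s_at or _a_at) and Rbx1 by -0.23. Arnt, the constitutive beta subunit, differed by -0.43. The direction of Hif1a, Hif3a, Egln3 and Vhl was the same on wild-type Apc, where their differences were -1.92, 1.59, 3.67 and -1.36.

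Hypoxia-induced regulators were higher as a group: 18 of 21 lay above 0, 7 of them by 2-fold or more, none was lower by 2-fold (0 of 21), and the median was 0.54. Ankrd37, an ankyrin repeat protein, read 8.08 and 11.73. Stc2, a secreted glycoprotein, read 7.94 and 10.30, and Ero1a, the oxidase that supplies disulfide bonds in the endoplasmic reticulum, 9.87 in the floxed array and was higher by 2.13. Ndrg1 differed by 1.69. The membrane carbonic anhydrases Car9 and Car12 differed by 1.42 and 1.38. On wild-type Apc Car9 differed by 1.40 but Car12 by -0.69. Among mitochondrial genes known to be remodelled by HIF, all 9 above the floor were higher, 3 by at least 2-fold, with a median of 0.93. Ndufa4l2, which lowers complex I activity, read 6.08 and 11.61, and Ak4, a mitochondrial adenylate kinase, 7.66 and 12.43. The mitophagy receptor Bnip3 read 10.99 and 12.97, while Pdk1, the kinase that shuts off pyruvate dehydrogenase, differed by 0.93.

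Angiogenic and vasoactive targets were mostly higher, with a median of 0.58. Of 8 above the floor, 7 lay above 0, and 2 of these by at least 2-fold. Vegfa, the main growth factor for endothelium, read 8.01 and 9.92, and the vasodilator peptide Adm 7.10 and 9.22. Edn1, which encodes the vasoconstrictor endothelin, went the other way, from 9.08 to 8.04. The enzymes that hydroxylate collagen, which like the HIF hydroxylases use oxygen, were higher in 9 of 10 cases with those that cross-link it, 3 by at least 2-fold. P4ha2 and P4ha1, the catalytic subunits of prolyl hydroxylase, read 6.13 and 8.25, and 8.01 and 9.90. Plod2, a lysyl hydroxylase, differed by 1.01. The collagens themselves had 0 of 17 members at least 2-fold apart and a median of 0.18.

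**Figure D2:**
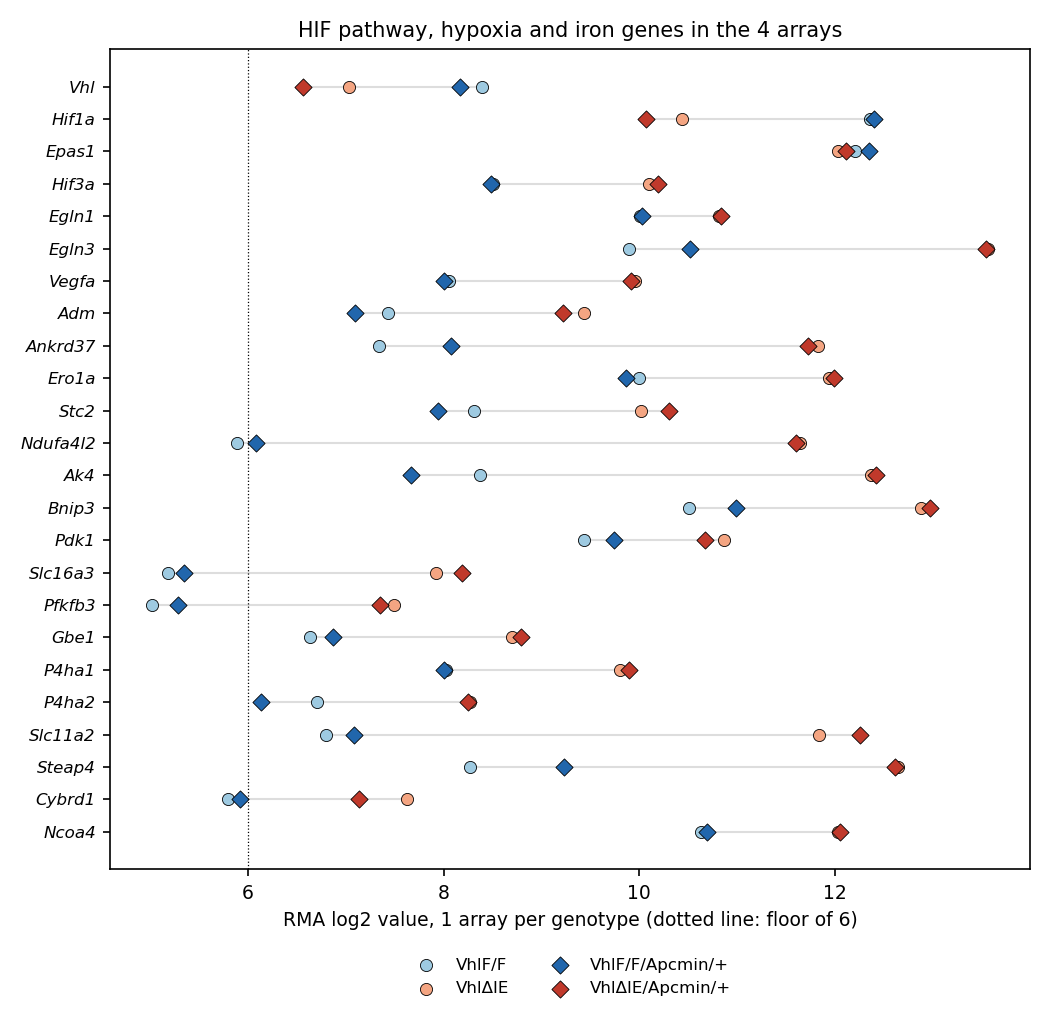
RMA log2 values of 24 HIF pathway, hypoxia and iron genes in the 4 arrays of the series, 1 point for each array, with Apc mutant arrays as diamonds. The deleted arrays (red and orange) lie above the floxed arrays (blue) for most genes, as for Ndufa4l2 at 11.61 against 6.08 in the Apc mutants, and below them for Vhl, Hif1a and Epas1.

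HIF binds the core sequences ACGTG and GCGTG. The promoters of 6 genes that were at least 2-fold higher show how such letters lie ahead of a start, over the 200 bases before it in the RefSeq annotation of GRCm38.p6, written 5′ to 3′ on the gene's strand, with capitals where either core sequence occurs on either strand (CACGT and CACGC are the reverse complements). In the Bnip3 window the palindrome CACGTG carries overlapping matches on the 2 strands, and it has 5 matches in all. The Slc16a3 window holds 2 matches and Car9 1. These 6 genes were picked without a fixed rule, and each holds a match. Others at least 2-fold higher, such as Sptssb, Plet1, Slc3a1 and Gbe1, held none in the wider windows counted below. Ak4 has 4 windows, of which the first is printed.
Bnip3 (chr7:138909507-138909706, minus strand): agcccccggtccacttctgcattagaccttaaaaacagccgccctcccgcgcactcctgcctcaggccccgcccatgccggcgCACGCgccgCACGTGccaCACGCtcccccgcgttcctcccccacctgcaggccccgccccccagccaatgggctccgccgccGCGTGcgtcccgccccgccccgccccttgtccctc
Slc16a3 (chr11:120948867-120949066, plus strand): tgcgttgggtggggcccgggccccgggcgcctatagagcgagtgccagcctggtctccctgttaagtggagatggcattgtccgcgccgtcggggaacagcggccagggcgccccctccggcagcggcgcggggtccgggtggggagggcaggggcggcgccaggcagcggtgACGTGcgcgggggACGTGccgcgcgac
Ero1a (chr14:45318573-45318772, minus strand): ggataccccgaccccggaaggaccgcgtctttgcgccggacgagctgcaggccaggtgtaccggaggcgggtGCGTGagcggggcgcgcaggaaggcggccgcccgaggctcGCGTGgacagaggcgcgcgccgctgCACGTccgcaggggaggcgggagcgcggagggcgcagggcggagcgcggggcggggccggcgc
P4ha2 (chr11:54100724-54100923, plus strand): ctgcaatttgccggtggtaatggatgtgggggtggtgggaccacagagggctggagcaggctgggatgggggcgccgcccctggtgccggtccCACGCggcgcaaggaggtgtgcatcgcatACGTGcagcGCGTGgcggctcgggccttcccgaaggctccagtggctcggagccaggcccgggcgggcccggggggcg
Car9 (chr4:43506826-43507025, plus strand): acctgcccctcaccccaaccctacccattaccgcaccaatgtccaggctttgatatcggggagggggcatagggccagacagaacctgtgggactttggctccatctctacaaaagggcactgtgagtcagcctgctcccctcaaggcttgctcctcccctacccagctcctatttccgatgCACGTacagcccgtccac
Ak4 (chr4:101419089-101419288, plus strand): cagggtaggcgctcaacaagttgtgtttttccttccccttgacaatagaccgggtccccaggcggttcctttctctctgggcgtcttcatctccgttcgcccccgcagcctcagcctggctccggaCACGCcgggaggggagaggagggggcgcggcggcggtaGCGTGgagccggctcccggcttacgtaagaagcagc
Over windows of 250 bases before to 50 bases after the start, a core sequence occurred in 43.8% of all 32851 windows and in 61.0% of windows of genes above the floor. Genes at least 2-fold higher held it in 52.1% of windows and genes at least 2-fold lower in 53.5%. The lists of angiogenic targets, hypoxia-induced regulators, mitochondrial remodelling, glycolysis, glycogen and collagen hydroxylases were joined as the hypoxia and sugar lists. Their members had a core sequence in 87.0% (20 of 23 windows) where the gene was at least 2-fold higher. Where it was not, the share was 75% (45 of 60). Counted by gene the order of this pair turned, to 88.9% (16 of 18 genes) and 90.7% (39 of 43), and with ACGTG alone it turned as well, to 56.5% and 60.0% of windows. The windows of the higher genes outside those lists had it in 49.3%. A match describes the letters of a window and no binding was measured. Windows of genes above the floor were richer in G and C (median 60.7%) than all windows (52.7%).

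Transcripts of sugar metabolism were higher at several steps. Of 18 genes of glycolysis and lactate export, 16 were higher, 4 by at least 2-fold, with a median of 0.59. Slc16a3, the lactate exporter MCT4, read 5.34 and 8.19, and Pfkfb3, which makes the activator of phosphofructokinase, 5.28 and 7.35. The phosphofructokinases Pfkp and Pfkl differed by 1.29 and 1.19, the latter 0.57 without _x_at, _s_at and _a_at probe sets. Enzymes of the lower pathway moved less, with Tpi1 at 0.72, Pkm at 0.71, Pgk1 at 0.66 and Ldha at 0.59. Glycogen metabolism had 8 of 10 genes higher, with the branching enzyme Gbe1 at 6.87 and 8.79 and Pgm1 at 9.46 and 10.90. Genes of oxidative phosphorylation, in contrast, were lower in 23 of 25 cases, though by little, with a median of -0.11, and the TCA cycle in 13 of 15 with a median of -0.16. Cox7a1, a cytochrome oxidase subunit of muscle and fat, was the 1 member at least 2-fold lower, at 10.41 and 9.33.

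Importers and reductases of inorganic iron were among the strongly higher genes, and an importer of heme among the lower ones. Slc11a2, the apical iron importer, read 7.09 in the floxed and 12.26 in the deleted array, and its 4 probe sets above the floor agreed. Steap4 and Cybrd1, which reduce iron, read 9.23 and 12.61, and 5.91 and 7.13. The zinc and iron transporter Slc39a14 read 8.74 and 10.25. The ferroxidase Cp differed by 1.26 (0.49 without _x_at, _s_at and _a_at probe sets). Slc46a1, an importer of heme and folate, went down from 9.49 to 7.52. Past 2-fold, 5 of the 14 uptake and export genes were higher and 1 lower. Of 13 storage and sensing genes, 2 passed 2-fold, both upward: Ncoa4, the receptor that delivers ferritin to lysosomes, at 10.69 and 12.05, and Bmp6, which signals iron load, at 6.31 and 7.45. Fth1, the ferritin heavy chain, differed by -0.32.

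Transcripts for the transport of other nutrients also differed. Amino acid transporters had 5 of 20 members higher by 2-fold or more and 1 lower, with a median of 0.37. Slc3a1, the heavy chain of the cystine transporter, read 4.87 and 9.45, and its light chain Slc7a9 7.47 and 9.43. Slc7a8 differed by 2.65 and the glutamine transporter Slc38a1 by 2.04. Slc36a1, a lysosomal proton-coupled transporter, went from 10.80 to 8.75. Shmt2, the mitochondrial serine hydroxymethyltransferase, read 7.69 and 10.20, and Psat1, of serine synthesis, differed by 1.02. Slc30a10, an exporter of manganese, read 7.55 and 11.06.

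**Figure D3:**
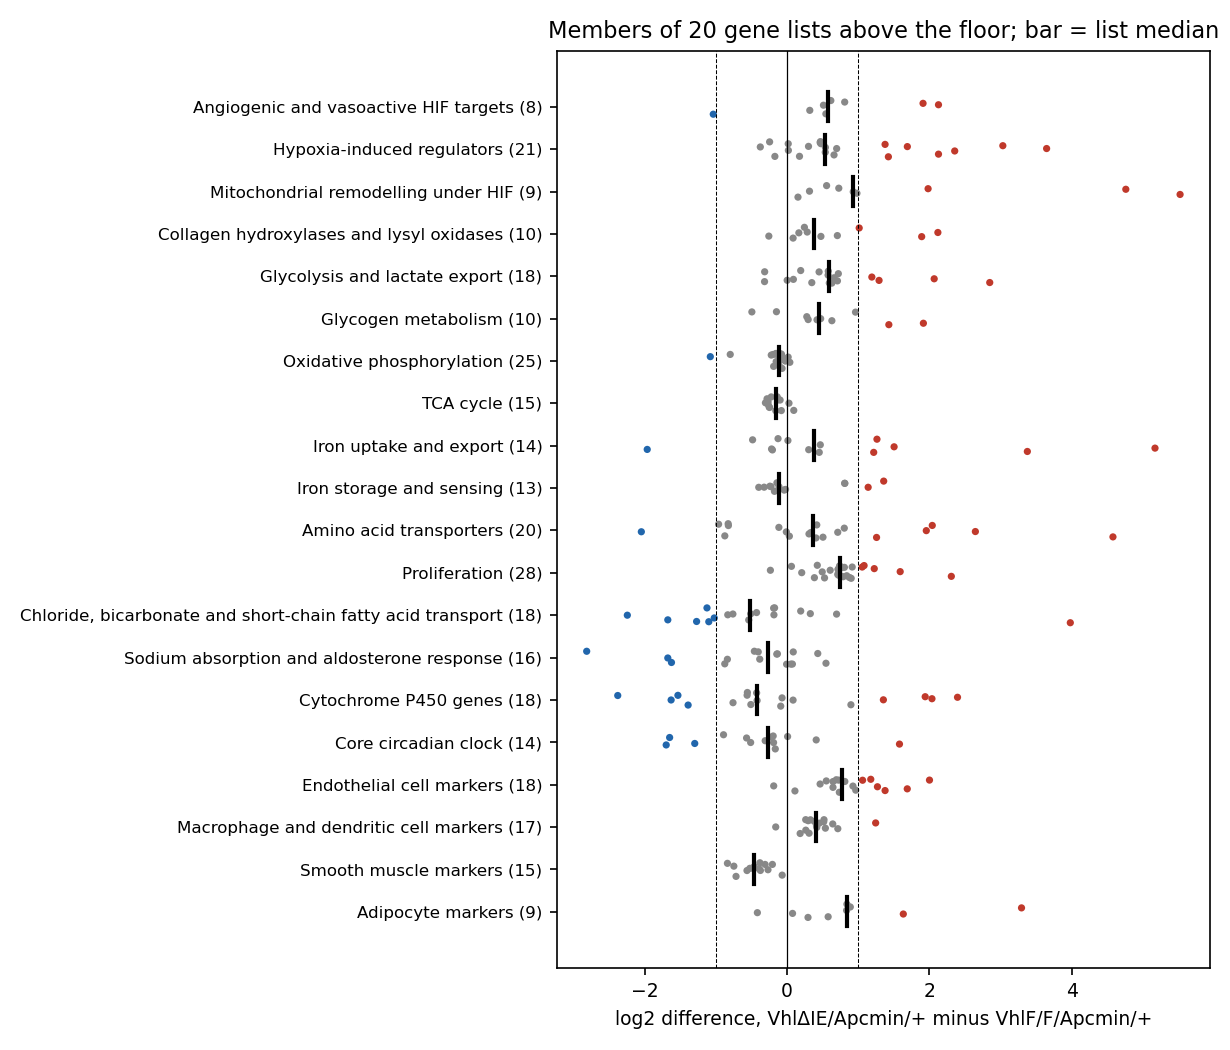
Log2 differences, deleted minus floxed, of the members of 20 gene lists that lay above the floor (number in parentheses); points at least 2-fold higher are red, at least 2-fold lower blue, dashed lines mark 2-fold and black bars the list medians. The bars of hypoxia, glycolysis, proliferation and endothelial lists lie to the right of 0, between 0.54 and 0.93, and that of smooth muscle at -0.46.

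Cell cycle genes were higher almost without exception. Of 28 above the floor, 27 were higher and 5 at least 2-fold, with a median of 0.74. The list also held the cell cycle inhibitors Cdkn1a, which differed by 0.75, and Cdkn1b, the 1 lower member, at -0.23. The checkpoint kinase Bub1 read 6.88 and 9.19, the ribonucleotide reductase subunit Rrm2 7.38 and 8.97, and Aurkb and Aurka differed by 1.23 and 1.08 (Aurka by 0.70 with the mean over probe sets). Cdk1 differed by 1.06, Mki67 by 0.53 and the replication helicase genes Mcm2 to Mcm7 by values between 0.61 (Mcm6) and 0.90 (Mcm5). The median for these genes on wild-type Apc was 0.52, with 4 at least 2-fold higher. Targets of the Wnt pathway showed no common direction, with 9 of 15 higher and a median of 0.18, which became -0.11 with a floor of 7. Lgr5, a receptor of stem cells at the crypt base, read 7.71 and 10.25, while Sox9, a transcription factor of the same crypt zone, read 9.15 and 7.97. Axin2, a direct beta-catenin target, differed by 0.53 and Myc by 0.01. Stem cell markers as a list had a median of -0.31, with 5 of 12 higher and 7 lower. Smoc2 differed by -0.89 and Ascl2 by -0.33, against Prom1 at 0.71 and Cdca7 at 0.36. Among EGF receptor ligands, Ereg differed by 1.33 and Hbegf by 1.06.

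Inflammatory genes differed in a few members. Ptgs2, the inducible cyclooxygenase, read 6.27 and 8.04, and Ptges, which makes prostaglandin E, 6.77 and 8.98. The receptor Ptger3 went down from 6.67 to 5.07. The chemokine Ccl8 read 7.41 and 9.68, Ccl9 differed by 1.28, and Mif, a cytokine that is also a HIF target, read 11.11 and 12.76, a difference that was 0.42 with the mean over probe sets. Ccl6 and Il15 differed by -1.25 and -1.39. Of 17 antimicrobial genes, 5 were at least 2-fold higher. The secreted ribonuclease Ang4 read 7.35 and 11.66, Retnlb, a resistin-like antimicrobial protein of goblet cells, 6.35 and 10.36, and the C-type lectin Reg3b 6.06 and 7.67. Defb45, a beta-defensin, read 9.34 and 7.09. H2-Ab1, of MHC class II, differed by 1.27, while 0 of 17 interferon response genes were 2-fold apart. Mmp13 and Mmp10, which cut collagen and matrix, read 4.77 and 6.62, and 6.26 and 7.51.

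Transcripts of ion and fluid transport were lower in the deleted array at many points. Of 18 genes of chloride, bicarbonate and fatty acid transport, 14 were lower, 6 by at least 2-fold, with a median of -0.53, and 1 was higher by as much: Clca4b, at 3.98, where Clca4a differed by 0.70. Slc5a8, the transporter of short-chain fatty acids, read 12.01 and 9.76, and the sulfate transporter Slc26a2 13.26 and 11.59. The potassium channel Kcnq1 and its partner Kcne3 differed by -1.02 and -1.13, Best2 by -1.27 and the bicarbonate transporter Slc4a4 by -1.10. Genes of sodium absorption followed in part. The epithelial sodium channel subunit Scnn1g read 9.33 and 6.51, Scnn1b 8.54 and 6.86, and Fxyd4, a regulator of the sodium pump, 12.71 and 11.09. S100g, which carries calcium through the cell, read 9.54 and 6.58, whereas the calcium channel Trpv6 was higher at 7.72 and 9.21. The water channel Aqp1, known from endothelium, differed by -1.35.

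Detoxification and lipid genes went in both directions. Among 18 P450 genes, 4 passed 2-fold upward and 4 downward. Cyp2s1 read 10.03 and 12.07 and Cyp2d26 8.19 and 10.13, against Cyp27a1 at 9.74 and 8.11 and Cyp2c55 at 12.90 and 11.51. The drug efflux pump Abcb1a read 12.43 and 10.51, and the sulfotransferase Sult1a1 11.11 and 9.66. Lpl, the lipase that clears lipoprotein triglyceride, was higher by 3.30 at 12.29, and Mttp, which loads lipid onto apolipoprotein B, read 6.06 and 7.84. Lpl is also made by fat cells, and the adipocyte list was higher in 8 of 9 cases with a median of 0.84. Its hormone Adipoq read 6.28 and 7.17. On wild-type Apc the list had a median of -0.05, and Adipoq read 7.64 in VhlF/F and 7.55 in VhlΔIE. The part of fat in the scrapings was not tested. Of 18 apolipoprotein and lipoprotein genes, Apoc1 and Apoa1 also passed 2-fold upward, at 1.68 and 1.60, and Apoa4 downward at -1.47. Cholesterol and fatty acid synthesis had Me1, which makes NADPH, at 7.08 and 8.48, and fatty acid oxidation had 0 of 18 genes past 2-fold. Of 14 core clock genes, 1 passed 2-fold upward and 3 downward. Nr1d1, a repressor of the clock, read 8.84 and 7.14, Per3 10.18 and 8.88, Ciart 8.52 and 6.87, and the output factor Dbp 10.74 and 8.05, while Npas2 was higher at 7.45 and 9.03. The hour of killing is not in the labels, and its part in these differences was not tested.

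Goblet cell genes had 3 of 17 members higher by 2-fold or more and a median of 0.07: Retnlb, the mucin glycosyltransferase Galnt12 at 10.70 and 11.81, and Spdef, the factor that drives goblet cell maturation, at 8.86 and 9.90. Absorptive colonocyte genes had 3 of 18 higher by 2-fold or more, 8 of 18 above 0 and a median of -0.02, with Fabp2 at 9.73 and 11.74 and the fluid-regulating hormone Guca2b at 7.55 and 9.10. Among 21 glycosyltransferases, 3 passed 2-fold upward and 1 downward, and B4galnt2 read 11.99 and 13.47 and B3gnt7 12.03 and 10.72. Enteroendocrine markers had 8 of 14 higher and a median of 0.19. The 2 past 2-fold were the hormone gene Cck, at 4.19 and 8.12, and proglucagon, Gcg, which differed by 1.13. The tuft cell marker Dclk1 differed by 0.12, while Il17rb, a receptor of interleukin-25, read 6.05 and 7.87. Tight junction genes had 2 of 19 members past 2-fold, both upward: Cldn15, a cation pore, at 8.90 and 10.14, and Cldn4, which seals the junction, at 9.51 and 10.67. Of 11 brush-border hydrolases 6 were higher, with a median of 0.28, and 1 passed 2-fold in each direction: the alkaline phosphatase Alpi at 6.51 and 7.99, and Naaladl1 at 7.57 and 5.99.

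Several stress and signalling lists had 0 members past 2-fold, which in lists this short is near the share of all genes, 4.35%. The integrated stress and unfolded protein response had 0 of 20 members past 2-fold and a median of 0.15, and peroxide defence had 0 of 16 and a median of 0.25. Oxygen-dependent histone demethylases and TET enzymes, which need oxygen as the HIF hydroxylases do, had 0 of 13 and a median of -0.19, with the HIF target Kdm3a at 0.54. Immediate early genes were higher in 12 of 17 cases with a median of 0.30, and 2 passed 2-fold, Ier3 at 7.67 and 9.83 and the phosphatase Dusp1 at 9.78 and 11.13. Ada, which breaks down adenosine, differed by 1.15. Metallothionein Mt3 read 6.23 and 7.44, the glutathione transferase Gsta4 9.82 and 11.12, and the sterol exporter subunit Abcg5 7.12 and 5.48.

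Transcripts of other cell types moved as well. In bulk scrapings fewer cells of a type and less RNA per cell cannot be told apart. Endothelial markers were higher in 17 of 18 cases, 6 by at least 2-fold, with a median of 0.77 and a mean level of 6.93 in the floxed and 7.80 in the deleted array. The endothelial sialomucin Emcn read 6.10 and 8.10, the VEGF receptors Flt1 and Kdr 6.43 and 8.12, and 7.49 and 8.76, and the junction gene Cdh5 differed by 0.81. Macrophage and dendritic cell markers were higher in 16 of 17 cases with a median of 0.41, and a mean level of 7.69 and 8.12. The mast cell proteases Mcpt1 and Mcpt2 read 4.19 and 6.98, and 4.74 and 6.99. Smooth muscle markers were lower in all 15 cases, with a median of -0.46 and a mean level of 10.94 and 10.48, and enteric neuron and glia markers in 8 of 9. Fibroblast markers had 0 of 17 members past 2-fold and a median of -0.20. B and plasma cell markers were lower in 7 of 11 cases with a median of -0.13, as for Blnk, an adaptor of the B cell receptor, at -0.70. The 1 past 2-fold was Prdm1, a factor of plasma cells and mature epithelium, at 6.51 and 8.39, and the antibody joining chain Jchain differed by 0.73. The T cell markers Cd3d and Cd3e differed by 0.02 and -0.31, and S100a8, the 1 neutrophil marker above the floor, read 4.89 and 6.44. The part of cell makeup in the gene groups above was not tested. Without the 139 markers of other cell types above the floor, 318 genes were higher and 179 lower past 2-fold.

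The same deletion on wild-type Apc, measured on 2 other arrays, gave 270 genes higher (2.27%) and 190 lower (1.60%) by 2-fold or more. Shared between backgrounds were 187 higher genes, 55.8% of the 335 and 69.3% of the 270, and 87 lower genes, 48.1% of the 181 and 45.8% of the 190. Sharing between backgrounds cannot tell Vhl status from sex, because Xist was lower in both deleted arrays. Most genes past 2-fold on the Apc mutant background but not on wild-type Apc lay on the same side of 0 there: of 148 such higher genes 118 lay between 0 and 1 on wild-type Apc, and of 94 lower genes 90 lay between -1 and 0. The share of all genes on the same side in both comparisons was not counted, so these counts have no background to be read against. The difference of the 2 Vhl differences was at least 1 for 113 genes (0.952%) and -1 or less for 28 (0.236%). It has no test with 1 array for each genotype. Of the 113 genes, the array that stood farthest from the others was VhlF/F for 52, VhlF/F/Apcmin/+ for 44, VhlΔIE/Apcmin/+ for 11 and VhlΔIE for 6. Some of the first kind were hepatocyte genes, whose list had a median of -2.54 on wild-type Apc and 0.13 here. Alb, the plasma albumin of liver, read 11.53 in VhlF/F, 7.25 in VhlΔIE, 6.10 in the floxed and 7.08 in the deleted Apc mutant array.

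**Figure D4:**
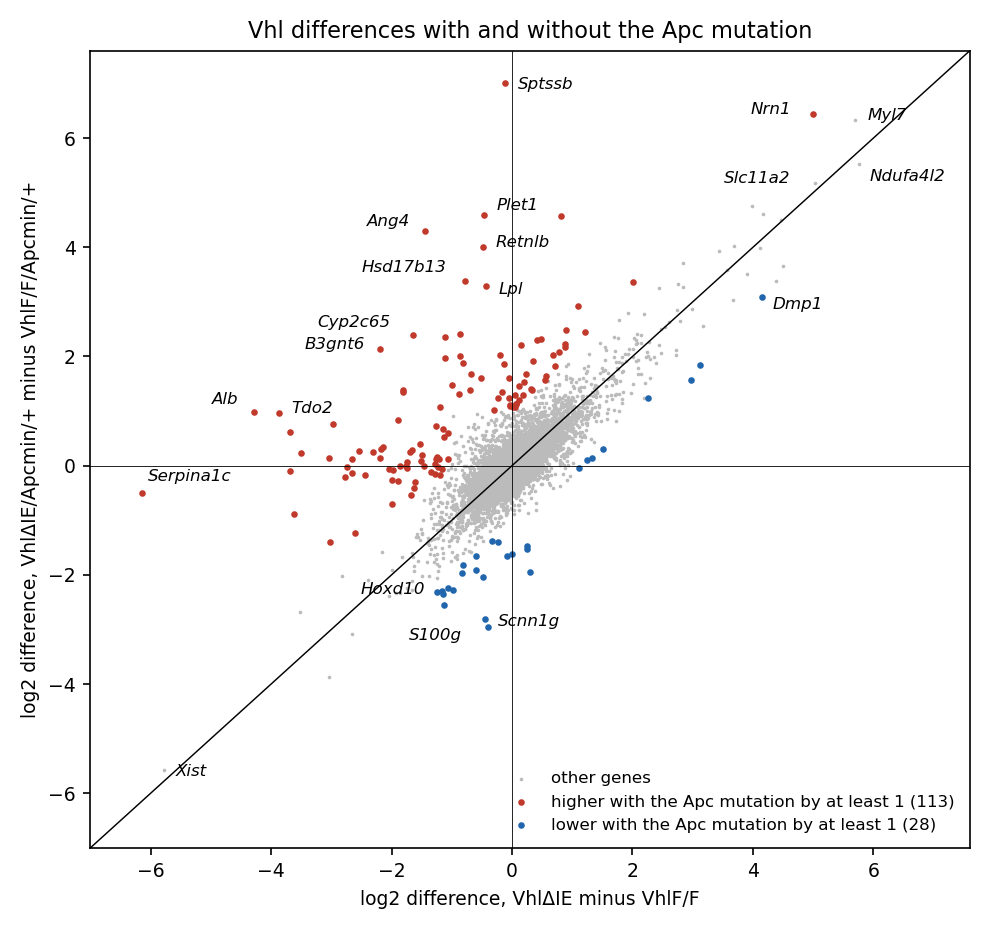
The log2 difference of each gene for Vhl deletion on wild-type Apc (x axis) and on Apc mutant background (y axis), with the line of equal values; the 113 red and 28 blue genes differ by at least 1 between backgrounds and are at least 2-fold apart in either. Sptssb lies at -0.11 and 7.02, and the hepatocyte genes Alb and Serpina1c lie far to the left.

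For several genes the floxed Apc mutant array stood below the other 3 arrays. Sptssb read 10.29 and 10.17 on wild-type Apc, a difference of -0.11, against 3.98 in the floxed Apc mutant array. Plet1, a surface protein of progenitor cells, read 10.04, 9.58 and 10.38 against 5.78. A second Plet1 probe set, with none of the name endings _x_at, _s_at and _a_at, differed by 0.17, and the third by 3.99. Retnlb read 10.12, 9.64 and 10.36 against 6.35. The intestinal fatty acid binding protein Fabp2 read 12.17, 11.31 and 11.74 against 9.73. Hsd17b13, a lipid droplet enzyme, was highest in the deleted array, at 7.24, and lowest in the floxed array, at 3.85. For other genes the floxed Apc mutant array stood above the other 3. Hoxd13, Hoxd11 and Hoxd10, which mark the posterior body axis, read 9.13, 5.41 and 6.52 in VhlF/F, 8.65, 4.81 and 5.38 in VhlΔIE, 9.05, 5.52 and 6.77 in the deleted Apc mutant array and 11.08, 7.43 and 9.13 in the floxed one. S100g read 7.28, 6.88 and 6.58 in the same 3 arrays and 9.54 in the floxed Apc mutant one, and Scnn1g 6.97, 6.53 and 6.51 against 9.33. Of the 148 higher genes not shared with wild-type Apc, the floxed Apc mutant array stood farthest for 110 and the deleted one for 34. Of the 94 lower genes the counts were 65 and 29. Choosing genes apart on mutant Apc but not on wild-type Apc favours these 2 arrays, so the counts show only the split between them. Hoxa and Hoxb genes, joined after the values were seen, had 0 of 11 members at least 2-fold apart, which is near the share of all genes (4.35%). Of these, 7 were higher and 4 lower, from -0.74 for Hoxb13 to 0.57 for Hoxa10. Hoxb13 read 12.26 in VhlF/F, 12.18 in VhlΔIE, 11.87 in the deleted Apc mutant array and 12.61 in the floxed one, and Hoxa13 differed by -0.39. Whether the stretch of colon scraped differed between arrays was not tested.

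Directions were opposite on the 2 backgrounds, each past 2-fold, for 9 genes (0.0758%): Ang4, B3gnt6, Cyp2c65, B4galnt1, Arg1, Cyp2e1, Cmah, Alpi and Tmigd1. Arg1 lay under the floor in both Apc mutant arrays, at 4.24 in the floxed and 5.63 in the deleted one, and reached it only in VhlF/F, at 6.47. Cyp2e1, a member of the hepatocyte list, was highest in VhlF/F, at 9.64. B3gnt6, which extends mucin O-glycans, read 8.51 in VhlF/F, 6.32 in VhlΔIE, 5.70 in the floxed Apc mutant array and 7.83 in the deleted one. The ganglioside enzyme B4galnt1 read 8.51, 7.39, 6.14 and 8.50 in that order, and Ang4 10.61, 9.17, 7.35 and 11.66. In each of these 3 genes the floxed array was the higher on wild-type Apc and the deleted array the higher on mutant Apc.

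**Figure D5:**
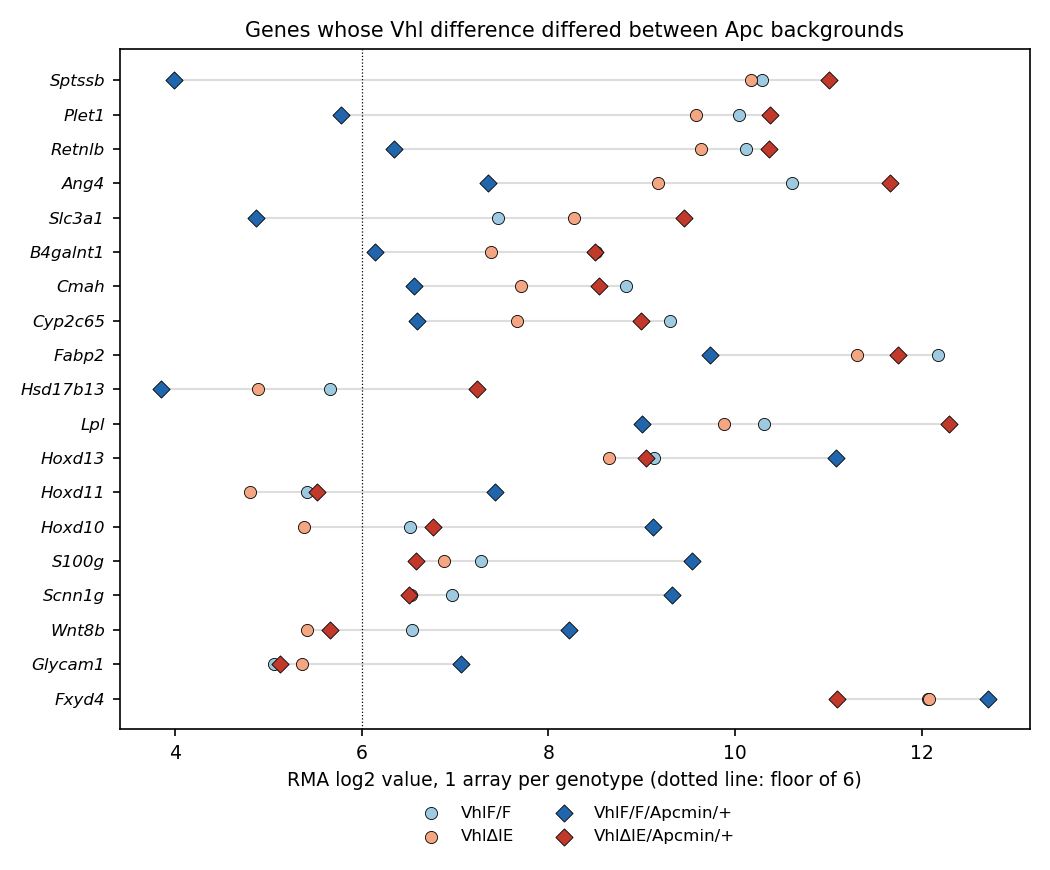
RMA log2 values in the 4 arrays of 19 genes whose Vhl difference changed with the Apc background, chosen with their values known. For Sptssb to Lpl the floxed Apc mutant array (dark blue diamond) is the lowest, and from Hoxd13 to Fxyd4 it is the highest, as for Hoxd10 at 9.13.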

How the data were processed

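Expression was read from the log2 values the authors deposited for each probe set. The submitters' processing notes name affy and RMA, with versions not given in the sources used here. RMA corrects background, makes the arrays' distributions equal and summarises probes, so a shift of all transcripts would not be seen and folds near background are understated. Array medians lay between 6.05 and 6.07.

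Symbols are those of GEO's platform annotation, which can be old, and older names in the gene lists were matched to them through RefSeq synonyms (GRCm38.p6). Of 45101 probe sets, 932 had several symbols and 9211 were not listed, and neither named a gene. Differences of 1 array from another were counted at a log2 value of 1 (2-fold). No p-value was computed. Counting was tested on simulated arrays.

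Members, the 67 gene lists and the rules were chosen with earlier results of these data known. Named were the 15 highest and 15 lowest genes (leaving out symbols of clones and predicted genes), the 10 highest and 10 lowest by difference between backgrounds, genes at least 2-fold apart in opposite directions, list members at least 2-fold apart or among the 6 largest, defining markers, and Vhl, Apc, HIF and sex-linked genes. Other genes were chosen after their values were seen. Alternatives were the floor, the probe set rule, leaving out probe sets named _x_at, _s_at or _a_at, cyclic loess, the threshold and the motif. Loess used limma 3.58.1 in R 4.3.3, all else Python 3.11.15 with pandas 2.3.3, numpy 2.4.6 and, for plots, matplotlib 3.10.9.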

Additional observations from a re-analysis of the deposited data

Results flagged for a closer look

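Genes at least 2-fold apart in opposite directions on the 2 Apc backgrounds numbered 9 of 11871 (0.0758%), and the difference between backgrounds was not tested. The Vhl difference with the Apc mutation minus that without was 5.74 for Ang4, 4.32 for B3gnt6, which builds mucin core structures, and 4.04 for Cyp2c65. It was 3.48 for B4galnt1, which makes complex gangliosides, 3.21 for the arginase Arg1, 3.16 for Cyp2e1 and 3.10 for Cmah, which makes a hydroxylated sialic acid. It was 2.49 for the intestinal alkaline phosphatase Alpi and 2.26 for Tmigd1. All 9 were higher in the deleted array with the Apc mutation and lower without it. Arg1 lay under the floor in both Apc mutant arrays, at 4.24 and 5.63, and Cyp2e1 is a member of the hepatocyte list. Control probe sets for Cre recombinase, which lie outside the gene table, were higher in the deleted Apc mutant array by 4.76, 4.42, 6.13 and 5.84.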

How the results depend on the processing

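Of 1161 values in alternatives for 202 named genes, 1128 kept their side of the threshold, 29 fell under it and 4 passed it, and no gene past 2-fold changed sign. Plet1 (0.17) fell under it without _x_at, _s_at and _a_at probe sets, as did Apoa4, Aplnr, Cp and Pfkl. The mean over probe sets took Eif2s3y to 0.81 and put Aplnr, Aurka, Aurkb, Cp, Cybrd1, Cyp27a1, Dlk1, Hbegf, Iglv1, Mif, Pfkl, Plod2, Slc4a4 and Sox9 under it, and cyclic loess put Edn1 and Kcnq1. With values under 6 raised to 6, Arg1, Serpina1c and Tdo2 had a difference of 0.00, and Esm1, Mcpt1, Mcpt2, Mmp13 (0.62), Ptger3 (-0.67) and S100a8 (0.44) fell under it. Cul2, Eloc and Epcam, all near 0, changed sign in some alternative. Of 65 lists with a median, 24 lay past 0.3 and all 24 kept their sign in the alternatives run, 8 of them falling under 0.3 in some alternative. Of the 41 under 0.3, 9 passed it in some alternative and 10 changed sign, as did Wnt targets (0.18 to -0.11 with a floor of 7) and carbonic anhydrases (0.14 to -0.17 with the mean over probe sets). With a 1.5-fold threshold 854 genes were higher and 611 lower, 525 and 324 of them in both Vhl comparisons, and the difference between backgrounds passed the threshold upward for 294 genes and downward for 172. With the mean over probe sets the latter count was 18 at 2-fold. In alternatives added after the data were seen, 325 genes were higher and 176 lower without chromosomes X and Y. No paired analysis was possible because each genotype has 1 array. The number of arrays limits the precision, and signal near background limits folds of dim genes.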

Other observations

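Some families outside the gene lists, picked after their values were seen, also stood apart between the Apc mutant arrays. Light chain variable segments of immunoglobulin genes, whose members are alike in sequence and may share probes, were higher in 9 of 9 cases above the floor and at least 2-fold in 8, with Iglv1 at 8.15 and 9.75. Imprinted genes of the Dlk1-Dio3 domain were higher in all 4 measured, with Rian at 7.75 and 9.62 and Dlk1, higher by 1.87, at 7.87, where their differences on wild-type Apc were -0.81 and -0.14. Vessel genes beyond the endothelial list included Esm1, a secreted proteoglycan of tip cells, at 4.27 and 6.82, and the apelin receptor Aplnr at 7.11 and 8.38. The pancreas-type secretory genes Clps, Sycn and Cela1 differed by -1.59, -1.36 and -1.20. Nxpe2 and Nxpe4 read 10.38 and 8.11, and 11.91 and 10.34.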
